A study of Mus musculus with 6 samples.

Results

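Complement is a cascade of plasma and tissue proteins that labels cells, debris and synapses for removal. The genes described here are 32 mouse complement components, receptors and regulators, taken by name from the 36629 genes in each of 6 spinal cord RNA-seq libraries. All 32 names had a row. The sham group (n = 3) comprised C57/BL6 mice, 3 to 5 weeks old, whose cord was exposed by laminectomy, removal of the bony arch, at vertebrae T9 and T10. The SCI (spinal cord injury) group (n = 3) came from mice of the same strain and age given the same laminectomy, after which a vascular clip of 60 g force crushed the cord for 5 seconds. Cord from T8 to T12 was taken 3 days after surgery in both groups, so every library carries the effect of laminectomy and anaesthesia. The study's stated aim was to compare injured with uninjured cord, and its title places it in Gas6/Axl signalling between microglia and astrocytes.

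The classical route starts when C1q, a bouquet of A, B and C chains, binds its target and switches on the proteases C1r and C1s, which cut C4 and C2. The lectin route reaches the same step through MASP proteases, and the alternative route amplifies cleaved C3 with factors B and D and properdin. All routes meet at C3 and can go on to C5 and the membrane attack complex of C6 to C9. The peptides C3a and C5a call in myeloid cells through their receptors, and membrane and soluble inhibitors hold the cascade back on host cells. The liver makes most plasma complement, whereas within the central nervous system microglia are the main source of C1q and astrocytes are known to make C3 and C4.

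Sequence before the start of 4 of the genes is printed first, because the results turn on them: 2 of the C1q chains, C3, on which the routes converge, and C3ar1, the member with the largest rise. The sequences are from RefSeq on GRCm38.p6 and run 5′ to 3′ on the minus strand that carries each gene. Those of C1qc, C3 and C3ar1 stop where the gene model of the deposited files begins. That of C1qb stops at its RefSeq start, shortly before its gene model. Capitals mark a match to a motif.
C1qb, chr4:136886201-136886450: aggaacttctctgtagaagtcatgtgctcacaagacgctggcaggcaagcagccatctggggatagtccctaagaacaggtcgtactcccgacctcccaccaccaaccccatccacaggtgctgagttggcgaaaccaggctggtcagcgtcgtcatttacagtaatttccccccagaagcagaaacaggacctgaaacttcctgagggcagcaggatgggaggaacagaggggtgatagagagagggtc
C1qc, chr4:136893066-136893164: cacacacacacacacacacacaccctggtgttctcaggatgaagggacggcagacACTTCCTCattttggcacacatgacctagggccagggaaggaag
C3, chr17:57228137-57228386: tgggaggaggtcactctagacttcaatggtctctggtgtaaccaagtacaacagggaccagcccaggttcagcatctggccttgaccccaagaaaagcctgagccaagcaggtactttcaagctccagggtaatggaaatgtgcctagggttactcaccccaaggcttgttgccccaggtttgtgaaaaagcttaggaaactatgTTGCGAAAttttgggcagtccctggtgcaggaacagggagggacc
C3ar1, chr6:122856162-122856407: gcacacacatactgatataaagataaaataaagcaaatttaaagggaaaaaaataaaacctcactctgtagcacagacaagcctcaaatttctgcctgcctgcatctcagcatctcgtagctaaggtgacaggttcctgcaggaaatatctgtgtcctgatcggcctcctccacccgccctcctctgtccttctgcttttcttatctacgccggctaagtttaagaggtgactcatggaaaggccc

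Of the 32 members, 24 had a RefSeq promoter window, running from 250 bases before the start to 50 from the start on. C1qa, C2, C4a, C4b, Cfb, Cfi, Masp1 and Serping1 had none. Both strands of each window were searched for 4 motifs. The C/EBP motif TTGCNNAA was in 6 of the 24 members (25.0%) and in 12.2% of 27025 genes. Its 6 members were C1ra, C1rb, C1s1, C3, C5ar2 and C9, and in C3 it began 45 bases before the start. The interferon-gamma type GAS motif TTCNNNGAA was in C1ra, C1rb, C7 and Masp2, 4 of 24 (16.7%) against 9.55% of all genes. The ISRE core, in which GAAA stands on both sides of any 2 bases, was in Cd46 and Cd59a (8.33% against 3.99%). The PU.1 motif GAGGAAGT was in C1qc alone of the 24 (4.17% against 3.69%), 195 bases before its RefSeq start. C1qb and C3ar1 held none of the 4 in their windows. The near copies C1ra and C1rb held the same letters for the C/EBP and GAS motifs, so their matches are not independent. In C1ra both matches lay after the start. These are letter matches in short windows, given as a description, and the data hold no binding measurement.

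Values are FPKM, in which fragment numbers are divided by gene model length and library size, so that levels of different genes can be set side by side. The depth behind them is unknown. Within groups the libraries correlated with Pearson r of 0.971 to 0.987 on log2(FPKM + 1), and between groups with 0.839 to 0.907. Cord markers were abundant, with Mbp, of myelin, at 2057 to 3289 FPKM in every library. SCI replicate 2 stood apart by blood: haemoglobin genes took 6.16% of its FPKM against 0.211% and 0.656% in the other SCI libraries. Sham replicate 2 had the lowest summed fibroblast markers, 84.8 FPKM against 202 and 215 in the other sham libraries. Of 6 hepatocyte markers, all but Apoa2 were at 1.89 FPKM or less in every library, and the 6 summed to 2.68 to 2.76 FPKM in sham cord against 2.51 to 4.41 in injured cord.

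The summed level of the 32 complement genes was about 4-fold higher in the injured cord, and most of the sum was C1q. The sum was 389, 327 and 388 FPKM in sham replicates 1, 2 and 3 and 1497, 1669 and 1603 in SCI replicates 1, 2 and 3, a ratio of means of 4.32. C1qa, C1qb and C1qc took 43.2% ± 1.14 (SD, n = 3) of the sum in sham cord against 71.8% ± 2.46 in injured cord. The inhibitor genes among the 32 members summed to 112 to 132 FPKM in sham cord against 125 to 133 in injured cord. Their share of the total was 33.8% ± 0.700 in sham cord against 8.19% ± 0.232 in injured cord. The inhibitor group counts C1qbp, a mitochondrial protein that binds C1q, at a mean of 40.1 FPKM in sham and 46.6 in injured cord. In these pieces of tissue, more cells of a type and more RNA per cell cannot be told apart.

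**Figure D1:**
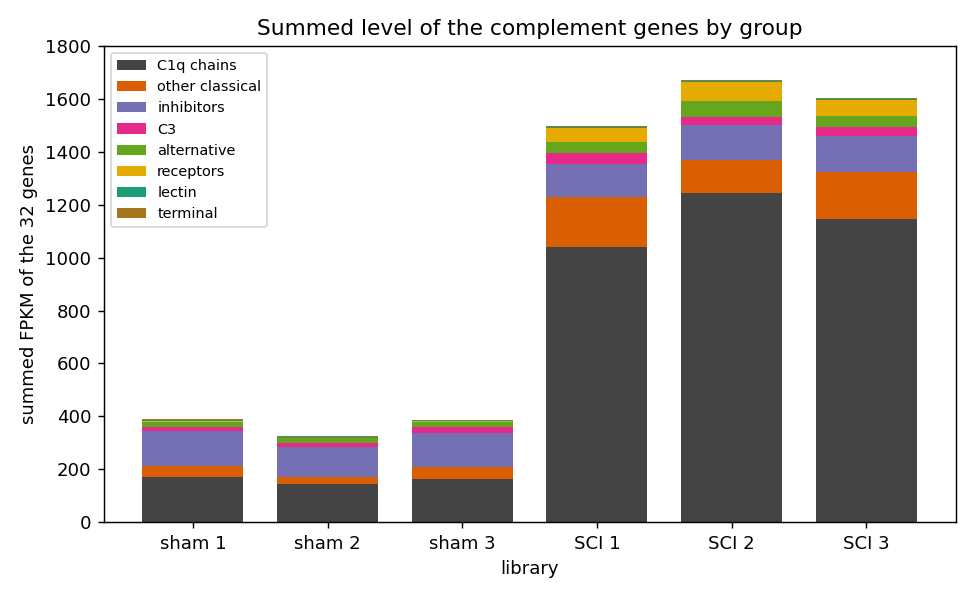
Summed FPKM of the 32 complement genes (vertical axis) in each library (horizontal axis), stacked by group of genes. The SCI bars reach 1497 to 1669 FPKM against 327 to 389 in sham, the C1q chains fill most of that difference, and the inhibitor segment has nearly the same height in all 6 libraries.

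A gene was tested if it reached 1 FPKM in at least 3 of the 6 libraries, which kept 21 of the 32 members and 17435 genes in all. In limma, at a Benjamini-Hochberg adjusted p under 0.05 over all genes tested, 11 members (52.4%) were higher in the injured cord, 2 (9.52%) were lower and 8 did not pass. Injury changed much of the transcriptome: of all genes tested, 57.5% passed, 26.7% higher and 30.8% lower. The SCI libraries all lay above the sham libraries for 13 of the 21 (61.9%), where 30.7% of all genes did, and all below for 3, where 36.9% did. Together, groups that did not overlap made up 67.6% of all genes tested. The median log2 change was 0.98 over the tested members and −0.08 over all genes tested. C5ar1 entered the test through its SCI values alone, and 4 more members had 1 FPKM in fewer than 3 sham libraries, so these shares are not independent of the filter.

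**Figure D2:**
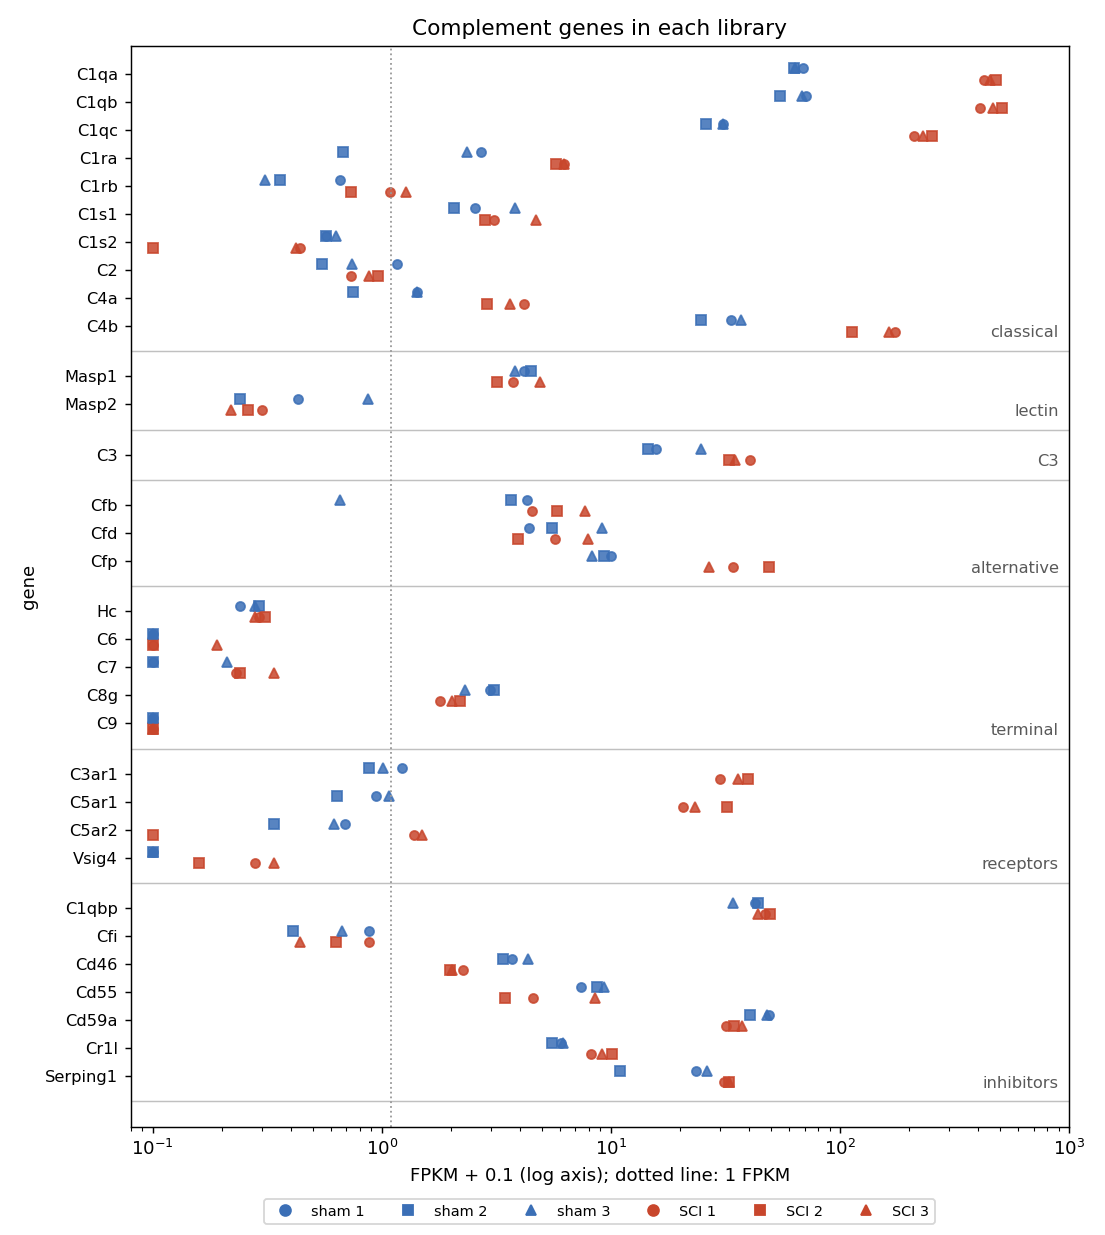
Level of each of the 32 genes, as FPKM + 0.1 on a log axis, with one marker per library (blue sham, red SCI, the shape gives the replicate) and genes ordered by their place in the cascade. C1q chains, C4b, Cfp, C3ar1 and C5ar1 show wide gaps between the groups, while most of the terminal components lie left of the dotted line at 1 FPKM in all 6 libraries.

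The 3 chains of C1q rose together, about 7-fold to 8-fold, and were the most abundant of the members in the injured cord. C1qa was at 68.5, 62.7 and 63.3 FPKM in sham replicates 1 to 3 and at 423, 481 and 451 in SCI replicates 1 to 3. C1qb was at 71.2, 54.8 and 68.4 in sham cord against 409, 509 and 464 in injured cord. C1qc was at 30.9, 25.9 and 30.8 in sham cord against 209, 253 and 231 in injured cord. All injured libraries lay far above all sham libraries, and SCI replicate 2 was highest for each chain. The log2 changes were 2.78 for C1qa (SE 0.08), 2.81 for C1qb (SE 0.13) and 2.94 for C1qc (SE 0.10), with limma adjusted p of 7.8e-06, 1.2e-05 and 7.8e-06. The genes lie side by side on the minus strand of GRCm38 chromosome 4, C1qb from 136880129 to 136886187, C1qc from 136889804 to 136893065 and C1qa from 136895917 to 136898803.

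The proportions among the chains barely moved. C1qa made up 41.0% ± 2.49 of the 3 chains' FPKM in sham cord against 39.6% ± 0.972 in injured cord, and C1qb 40.7% ± 2.14 and 40.2% ± 0.864. C1qc made up 18.0% to 19.0% in sham cord against 20.1% to 20.3% in injured cord, so its groups did not overlap, although they lay close. The protein needs the chains in equal number, and the C1qc transcript was the least abundant in every library.

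Markers of the cells known to make C1q were also higher. Of 8 microglial markers 7 were higher (87.5%, against 26.7% of all genes tested), and their summed level was 193 to 208 FPKM in sham cord against 639 to 803 in injured cord. The 8 macrophage markers summed to 119 to 164 FPKM in sham cord against 1082 to 1867 in injured cord. Most of that sum was Lyz2, at 91.9 to 127 FPKM in sham cord against 910 to 1610 in injured cord. All 8 were called higher, but 5 of them entered the test through their SCI values alone, so that count was largely fixed by the filter. None of the 16 was at 0 in all libraries. Against single genes of these cells, in a comparison chosen after values were seen, the ratio of C1qa to Cx3cr1, the fractalkine receptor, was 3.34 to 3.45 in sham cord against 7.44 to 8.29 in injured cord. The ratio of C1qa to Aif1, a calcium-binding protein of microglia and macrophages, was 12.0 to 15.5 in sham cord against 14.6 to 17.7 in injured cord, and the groups overlapped. C1qa thus differed more between the groups than Cx3cr1 did. Fcrls, another microglial marker, differed more than C1qa, with ratios of means of 11.8 and 6.97, and the other microglial markers differed less. The part of cell number in the result was not tested.

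The proteases that C1q activates were about an order of magnitude or more below it. C1ra was at 2.62, 0.58 and 2.25 FPKM in sham cord against 6.11, 5.67 and 6.17 in injured cord, and it rose (log2 change 1.40, SE 0.30, limma adjusted p = 0.0059). Its partner C1s1 was at 2.46, 1.97 and 3.71 in sham cord against 2.98, 2.72 and 4.59 in injured cord. Those groups overlapped, and the log2 change of 0.26 (95% interval −0.27 to 0.78) did not pass. The near copies C1rb and C1s2 were too low to test. C1rb was at 0.56, 0.26 and 0.21 in sham cord against 0.99, 0.63 and 1.17 in injured cord, and C1s2 at 0.47 to 0.53 in sham cord against 0.34, 0.00 and 0.32 in injured cord. C1ra and C1rb share 994 words of 100 bases in their GENCODE transcripts, 34.5% of those of C1ra and 42.7% of those of C1rb, so reads can be split between them. For C1s1 and C1s2 the shared words were 6.87% and 8.78%. The 4 genes lie within one stretch of chromosome 6, from 124512405 to 124636085.

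C4 and C2 are the substrates of C1s, and of these C4b rose strongly. C4b was at 33.3, 24.8 and 36.9 FPKM in sham cord against 173, 113 and 163 in injured cord, a 4.73-fold difference of means (log2 change 2.20, SE 0.20, limma adjusted p = 1.5e-04). Unlike the C1q chains, C4b was lowest of the SCI libraries in replicate 2. C4a, which encodes the sex-limited protein in mice, was at 1.32, 0.65 and 1.32 in sham cord against 4.09, 2.79 and 3.53 in injured cord (log2 change 1.10, SE 0.19, adjusted p = 0.0025). C4b and C4a share 15.2% and 13.1% of their transcript words of 100 bases, and C4b held 96.2% to 97.9% of their joint FPKM in all 6 libraries. The values of C4a are therefore those most open to reads of its neighbour. C2 was at 1.06, 0.45 and 0.64 in sham cord against 0.63, 0.86 and 0.78 in injured cord, too low to test, with overlapping groups. On chromosome 17 C4b runs from 34728380 to 34743882, C4a from 34809092 to 34823464, Cfb from 34856374 to 34862518 and C2 from 34862604 to 34898265, all on the minus strand.

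**Figure D3:**
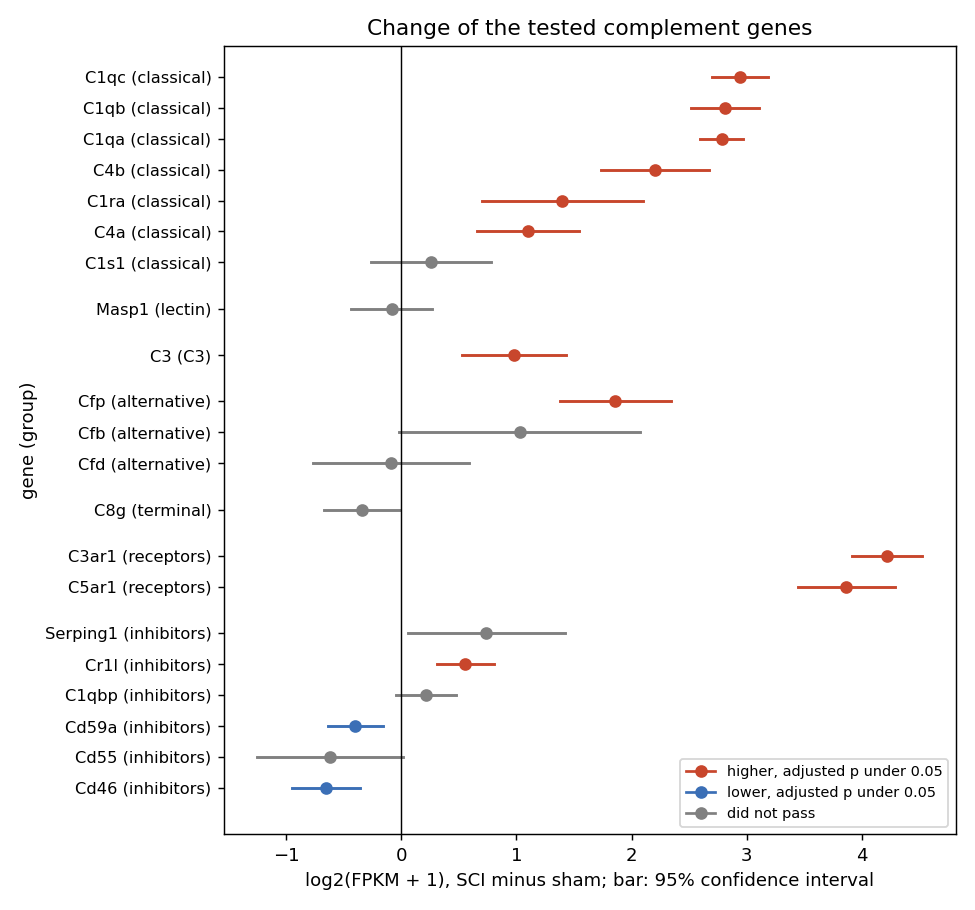
Log2 change of the 21 tested genes, SCI minus sham on log2(FPKM + 1), with 95% confidence intervals (horizontal axis) and genes sorted within their group. C3ar1 (4.22) and C5ar1 (3.86) lie farthest to the right, the C1q chains follow at 2.78 to 2.94, and 4 of the 6 inhibitors have intervals that reach below 0, among them the 2 members that were lower.

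Of the 2 lectin route proteases, Masp1 did not pass and Masp2 was too low to test. Masp1 was at 4.09, 4.40 and 3.71 FPKM in sham cord against 3.63, 3.08 and 4.78 in injured cord. The groups overlapped, with a log2 change of −0.08 (95% interval −0.44 to 0.27). Masp2, the protease that cuts C4 in this route, was at 0.14 to 0.77 in sham cord against 0.12 to 0.20 in injured cord and was not tested. Masp2 overlaps Tardbp on the other strand by 3118 bases, and Masp1 overlaps Rtp4 by 525, and the strand setting of the quantification is not given in the sources used here.

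C3 itself was about 2-fold higher. It was at 15.6, 14.5 and 24.5 FPKM in sham cord against 40.5, 32.5 and 34.7 in injured cord, and every injured library lay above every sham library. The ratio of means was 1.97 (log2 change 0.98, SE 0.19, limma adjusted p = 0.0043). C3 changed less than C4b: the ratio of C3 to C4b was 0.468 to 0.664 in sham cord against 0.213 to 0.288 in injured cord. C1qa over C3 was 2.58 to 4.40 in sham cord against 10.4 to 14.8 in injured cord. These ratios were chosen after values were seen and were not tested. C3 lies on chromosome 17 from 57203970 to 57228136.

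Of the alternative route, Cfp alone passed. Cfp encodes properdin, the protein of leukocytes that stabilises the C3 convertase, and was at 9.89, 9.25 and 8.15 FPKM in sham cord against 34.0, 49.1 and 26.6 in injured cord. It rose 4.02-fold (log2 change 1.86, SE 0.20, limma adjusted p = 3.7e-04) and was highest in SCI replicate 2. The same library was high for myeloid markers: 7 of 8 macrophage markers and 5 of 5 tested neutrophil markers had their highest SCI value there, as did 25.5% of all genes tested. The neutrophil list summed to 255, 605 and 131 FPKM in SCI replicates 1, 2 and 3 and to 15.3 to 40.8 in sham libraries, and its part in the Cfp values was not tested. Without SCI replicate 2 Cfp stayed past the threshold, as it did in each of the 15 alternatives.

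Factor B and factor D were less clear. Cfb, the catalytic part of the alternative convertase, was at 4.22, 3.56 and 0.56 FPKM in sham cord against 4.41, 5.74 and 7.63 in injured cord. The groups did not overlap, but the highest sham and lowest SCI library nearly met, and the log2 change of 1.03 (SE 0.44, limma adjusted p = 0.083) did not pass. It was 1.35 (adjusted p = 0.049) without sham replicate 1 and 0.48 (adjusted p = 0.11) without sham replicate 3, the library with the low value. Cfd, the protease also called adipsin, was at 4.28, 5.43 and 9.05 in sham cord against 5.60, 3.84 and 7.81 in injured cord. Those groups overlapped, with a log2 change of −0.09 (95% interval −0.77 to 0.58). Its sign turned without sham replicate 3 (0.17) or SCI replicate 2 (0.13).

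Most terminal components were at or near 0 FPKM in both groups. Hc, which encodes C5, was at 0.14 to 0.19 FPKM in sham cord against 0.18 to 0.21 in injured cord. C6 was listed at 0 in all libraries but SCI replicate 3 (0.09), C7 was at 0 to 0.11 in sham cord against 0.13 to 0.24 in injured cord, and C9 was listed at 0 in all 6. C8g, the small lipocalin chain of C8, was the exception in level, at 2.87, 2.99 and 2.20 in sham cord against 1.69, 2.09 and 1.92 in injured cord. Its SCI libraries lay below the sham libraries, but the log2 change of −0.34 (SE 0.14, limma adjusted p = 0.070) did not pass. It passed without sham replicate 3 (−0.44, adjusted p = 0.047), under quantile normalization (−0.45, adjusted p = 0.036) and in limma without the trend (adjusted p = 0.042). C8g overlaps Fbxw5 on the other strand by 970 bases.

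The receptors for C3a and C5a had the largest rises of all members. C3ar1 was at 1.12, 0.78 and 0.91 FPKM in sham cord against 29.9, 39.7 and 35.7 in injured cord. C5ar1 was at 0.84, 0.54 and 0.98 in sham cord against 20.6, 32.1 and 23.2 in injured cord. Both were near 1 FPKM in sham cord and above 20 FPKM in every injured library. The ratios of means were 37.5 and 32.2, and the log2 changes, which understate rises from low levels, were 4.22 (SE 0.13, limma adjusted p = 7.8e-06) and 3.86 (SE 0.18, adjusted p = 1.3e-05). On log2(FPKM + 0.1) they reached 5.09 and 4.85. C3ar1 made up 48.1% to 59.1% of the FPKM of the pair in sham cord against 55.3% to 60.6% in injured cord, so the pair kept similar proportions. Both receptors had their highest value in SCI replicate 2, and without that library the log2 changes were 4.13 and 3.68. The macrophage and neutrophil markers high in that library were also higher after injury, with sums 10.1-fold and 13.3-fold above those of sham cord. Lyz2 made up most of the macrophage sum, and the part of these markers in the receptor values was not tested.

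The other receptors stayed low. C5ar2, a second C5a receptor that does not couple to G proteins, was at 0.59, 0.24 and 0.52 FPKM in sham cord against 1.28, 0.00 and 1.40 in injured cord. It lies next to C5ar1 on chromosome 7, from 16234585 to 16244154 against 16246743 to 16259540. The 2 transcripts share no word of 100 bases. Vsig4, the C3b receptor of resident tissue macrophages, was listed at 0 in all sham libraries and was at 0.18, 0.06 and 0.24 in SCI libraries. Neither was tested.

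Inhibitors among the members went both ways and by small amounts. Soluble inhibitors outside the members, among them Clu and Vtn, are described with the other pathway genes below. Cr1l, which encodes Crry, the rodent membrane inhibitor of C3 and C4 convertases, was at 5.97, 5.41 and 6.06 FPKM in sham cord against 8.05, 9.99 and 9.07 in injured cord. It rose 1.55-fold (log2 change 0.56, SE 0.11, limma adjusted p = 0.0037). Cd46, a cofactor for factor I whose protein in mice is known mainly from the testis, was at 3.59, 3.29 and 4.24 in sham cord against 2.16, 1.88 and 1.93 in injured cord. It fell 1.86-fold (log2 change −0.65, SE 0.13, adjusted p = 0.0039). Cd46 (195036826 to 195092249) and Cr1l (195097382 to 195131561) are minus-strand neighbours on chromosome 1, and their transcripts share no word of 100 bases. Cd46 overlaps A330023F24Rik, at a mean of 12.5 FPKM, on the other strand by 1079 bases.

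Cd59a, which blocks assembly of the membrane attack complex, had the highest mean level in sham cord of the inhibitors among the members. It was at 48.7, 40.3 and 47.8 FPKM in sham cord against 31.5, 34.3 and 37.1 in injured cord. The groups did not overlap, and Cd59a fell by 0.40 on the log2 scale (SE 0.10, limma adjusted p = 0.013). That call ended without sham replicate 1 (−0.35, adjusted p = 0.052) or sham replicate 3 (−0.36, adjusted p = 0.052), and the count of members that were lower went from 2 to 1 without sham replicate 1. Cd55, or decay-accelerating factor, was at 7.27, 8.56 and 9.26 in sham cord against 4.48, 3.34 and 8.43 in injured cord. SCI replicate 3 lay within the sham range, and the log2 change of −0.62 (SE 0.27, adjusted p = 0.085) did not pass. It passed without SCI replicate 3 (−0.94, adjusted p = 0.0032) and was at −0.38 without SCI replicate 2.

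Serping1, the C1 inhibitor that inactivates C1r, C1s and the MASP proteases, was at 23.5, 10.8 and 26.2 FPKM in sham cord against 31.0, 32.8 and 32.7 in injured cord. The SCI libraries lay within 2 FPKM of each other and above all sham libraries, and sham replicate 2 was far below its group. The log2 change of 0.74 (SE 0.29, limma adjusted p = 0.061) did not pass. It passed without sham replicate 2 at a smaller size (0.36, adjusted p = 0.021), without sham replicate 3 (0.96, adjusted p = 0.034), under quantile normalization (0.74, adjusted p = 0.049) and under median-ratio scaling (0.82, adjusted p = 0.041). C1qbp, a mitochondrial protein that binds the heads of C1q, was at 42.6, 43.7 and 34.1 in sham cord against 46.8, 49.4 and 43.6 in injured cord, and did not pass (log2 change 0.22, 95% interval −0.04 to 0.48). Cfi, the protease that cuts C3b and C4b, was at 0.31 to 0.78 in sham cord against 0.34 to 0.78 in injured cord and was not tested.

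Sham replicate 2 was the lowest sham library for 14 of the 21 tested members (66.7%) and for 44.4% of all genes tested. Among the classical genes this held for 7 of 7. Of 8 markers of meningeal and perivascular fibroblasts, all 8 were lowest in the same sham library, and 5 were higher, 1 lower and 2 not past the threshold in the injured cord (26.7% of all genes tested were higher and 30.8% lower). Their sum was 215, 84.8 and 202 FPKM in sham cord against 253, 495 and 290 in injured cord. Serping1 and C1ra shared the low point of this sum, in that sham replicate 2 was far below the other sham libraries. Among SCI libraries they parted: the sum was highest in replicate 2, where C1ra and C4b were lowest and Serping1 differed little. Single markers differed: 5 of the 8 had their highest SCI value in replicate 2, 1 in replicate 1 and 2 in replicate 3. The part of fibroblasts in these results was not tested. Without both second replicates, an alternative added after the data were seen, 12 members were higher and 2 lower.

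**Figure D4:**
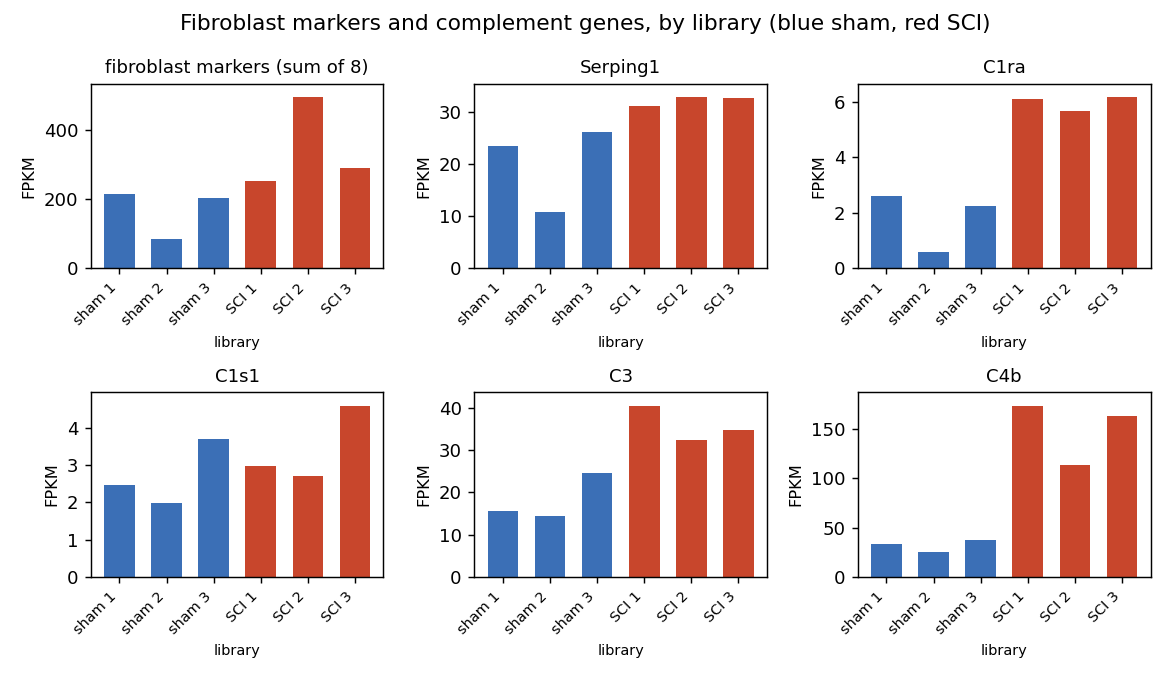
Summed FPKM of 8 fibroblast markers and FPKM of 5 complement genes (vertical axes, each from 0) in the 6 libraries (horizontal axes, blue sham, red SCI). Sham replicate 2 is low for the markers (84.8), Serping1 (10.8) and C1ra (0.58), while SCI replicate 2, with the highest marker sum (495), is the lowest SCI library for C1ra, C1s1, C3 and C4b and differs little from the others for Serping1.

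A list of 32 other genes of the pathway was examined as well, of which 31 had a row and 18 could be tested. Of the 18, 11 were higher (61.1%, against 26.7% of all genes), 4 were lower and 3 did not pass. As 5 of the 18 had 1 FPKM in fewer than 3 sham libraries, and 2 of these in none, that share is not independent of the filter. Receptor chains for cleaved C3 were higher by differing amounts. Itgam and Itgb2, the 2 chains of complement receptor 3, rose 11.0-fold and 12.0-fold, to 85.8 ± 28.6 and 79.2 ± 14.5 FPKM (SD, n = 3), with log2 changes of 3.27 and 3.38. Itgax, the alpha chain of complement receptor 4, went from 1.21 ± 0.241 to 3.29 ± 0.496 FPKM (log2 change 0.96), and Cr2, complement receptor 2, was at 0.12 to 0.31 in sham cord against 0.08 to 0.21 in injured cord and was not tested. Cd93, a receptor once linked to C1q uptake and found on endothelium and myeloid cells, went from 5.69 ± 0.180 to 49.4 ± 10.6 (log2 change 2.89).

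Not every soluble regulator of this list passed the test. Clu, clusterin, which blocks the terminal complex, rose 2.07-fold to 848 ± 81.2 FPKM, the highest level of any pathway gene examined. Vtn, vitronectin, another terminal inhibitor, did not pass (log2 change −0.57, adjusted p = 0.071), except without SCI replicate 1 (−0.77, adjusted p = 0.026) and with the replicate block (adjusted p = 0.030). Srpx2, a C1q inhibitor of synapses, rose 3.11-fold to 6.78 ± 1.48.

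Of the recognition molecules in this list, Ptx3, Fcna and Colec12 were higher, Colec11 did not pass, and Fcnb, Colec10, Mbl1 and Mbl2 were among those too low to test. Ptx3, a pentraxin that binds C1q, went from 0.840 ± 0.282 to 17.6 ± 2.99 FPKM (log2 change 3.33). Fcna, a ficolin of the lectin route, and C1rl, a C1r-like protease, went from 0.363 ± 0.321 to 2.48 ± 0.896 and from 0.397 ± 0.112 to 2.12 ± 0.261, and both entered the test through their SCI values alone. Colec12, a scavenger receptor with a lectin domain, went from 2.50 ± 0.519 to 6.19 ± 2.15, and Colec11, a soluble lectin with a log2 change of −0.32, did not pass.

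The 4 that fell encode membrane proteins with complement-control repeats and are known from neurons. Susd4 went from 56.3 ± 1.14 to 23.3 ± 5.47 FPKM (log2 change −1.27). Csmd3, Csmd1 and Csmd2 fell 2.26-fold, 1.95-fold and 1.48-fold (log2 changes −0.90, −0.64 and −0.46). All 7 neuronal markers examined were lower too, where 30.8% of all genes tested were, with sums of 2302 to 2705 FPKM in sham cord against 708 to 1100 in injured cord, and their part in these falls was not tested. Cd59b, the near copy of Cd59a, did not pass (log2 change −0.52, adjusted p = 0.11), except without sham replicate 1 (−0.76, adjusted p = 0.025).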

How the data were processed

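FPKM values, one per gene and library with 2 decimals, were made by the authors and deposited per library, per the file headers. Tools listed in the submitters' processing notes, with no role given, were StringTie 1.3.4d, HISAT2 2.0.4, cutadapt 1.9, UMI-tools, edgeR and DESeq2, and the build listed was mm9. Gene positions in the files are those of GRCm38: 33448 of 36502 identifiers shared with GENCODE M21, and 31 of 32 members, had the same position. No read step could be recovered (among short genes under 1 FPKM, no log2 ratio between libraries, in steps of 0.05, was shared by more than 4.38% to 5.83% of genes), so depth is unknown.

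Log2(FPKM + 1) of genes that reached 1 FPKM in 3 or more of the 6 libraries was fitted in limma 3.58.1 (R 4.3.3) with a mean-variance trend and group as the term, adjusted with the Benjamini-Hochberg method at 0.05. The test was checked on simulated data. Labels do not say whether libraries came from single animals, so p-values measure the spread between these libraries. Every member is named, as is every tested gene of the other pathway list except 1 that is not reported here. Members and lists were chosen with earlier results of these data known. Alternatives were 14 planned and 1 added.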

Additional observations from a re-analysis of the deposited data

How the results depend on the processing

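Without any 1 library the count of members higher was 11 to 12 and of members lower 1 to 3. For the other pathway genes these ranges were 11 to 11 higher and 4 to 5 lower, and 8354 to 9636 genes passed in all. With at least 5 FPKM in at least 3 libraries, a filter that tests fewer genes, 1 member was lower, and 7 other pathway genes were higher and 1 lower. Under quantile normalization 4 members were lower, and the cause was not tested. The log2 change of Masp1 turned to 0.03 without SCI replicate 2 and to 0.079 without both second replicates. That of Cfd turned to 0.17 without sham replicate 3, to 0.13 without SCI replicate 2 and to 0.066 without both second replicates. Without any 1 library Masp1 was between −0.22 and 0.03, and Cfd between −0.31 and 0.17. Neither passed in any alternative, and no other sign turned among the tested genes of both lists.

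Same-numbered libraries did not deviate together (Pearson r of −0.008, −0.039 and 0.022 for numbers 1, 2 and 3, across genes). With the replicate block 11 members were higher, 3 lower and 9443 genes passed, against 10024 without the block, and 11 other pathway genes were higher and 5 lower. Cd55 passed with the block (adjusted p = 0.0497). The calls on C1qa, C1qb, C1qc, C1ra, C4a, C4b, C3, Cfp, C3ar1, C5ar1, Cr1l and Cd46 held in every alternative in which the gene was tested. The unknown depth limits what can be said of members under 1 FPKM.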

Other observations

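The globular head of C1q is shared with a family of proteins outside complement, and these split by gene. A list of 26 such genes was added after the data were seen, and 20 could be tested, of which 9 were higher, 6 lower and 5 did not pass (26.7% and 30.8% of all genes tested were higher and lower). Emilin1, an elastic fibre glycoprotein, went from 0.887 ± 0.225 to 19.7 ± 7.47 FPKM (SD, n = 3), and Col8a1, a short-chain collagen, from 1.22 ± 0.345 to 10.8 ± 4.11. C1qtnf6 went from 2.06 ± 0.930 to 12.1 ± 0.907 and C1qtnf5 from 21.3 ± 3.30 to 49.2 ± 6.11. Of 4 cerebellins, synaptic organisers released by neurons, 3 were lower and Cbln3 was too low to test. Cbln1 went from 27.0 ± 2.34 to 9.31 ± 3.47 and Cbln2 from 16.5 ± 0.384 to 8.96 ± 2.71, and Cbln4 ended at 7.67 ± 2.60. C1qtnf4 went from 40.4 ± 4.77 to 18.5 ± 5.21 and C1ql3, a synaptic ligand, from 11.9 ± 1.00 to 6.79 ± 1.73, and both were lower. C1ql1 was higher at a small size, 7.72 ± 0.170 in sham and 9.84 ± 0.577 in SCI libraries.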
